A study of Mus musculus with 2 samples.

Results

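RNA levels of 10 genes for secreted Wnt antagonists were compared in the lower molar mesenchyme of mouse embryos with and without Osr2. They are the secreted frizzled-related protein genes Sfrp1, Sfrp2, Frzb, Sfrp4 and Sfrp5, the Dickkopf genes Dkk1, Dkk2, Dkk3 and Dkk4, and Wif1. They were taken by family name from 22072 gene symbols listed, and they were put forward because earlier results of the same libraries showed several of them lower in the mutant. Their levels and differences are therefore a description with no test. Osr2 is a gene for a zinc-finger protein that regulates transcription in the mesenchyme of the tooth. The control library came from Osr2+/- embryos, which carry 1 mutant allele themselves, and the mutant library from Osr2-/- embryos, both at embryonic day 14.5 and on a mixed background. Molar mesenchyme was laser-captured from frozen sections, and tissue of 3 pairs was pooled before RNA extraction, so that each genotype has 1 library. The series title calls the control wild type, while its sample label gives the heterozygous genotype, which is used here.

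Wnt proteins signal through Frizzled receptors and, in the branch that stabilises beta-catenin, through the co-receptors Lrp5 and Lrp6. The Sfrp proteins and Frzb carry a cysteine-rich domain like that of the Frizzled receptors and bind Wnt ligands outside the cell, and Wif1 binds Wnt ligands through a domain of another kind. Dkk1, Dkk2 and Dkk4 bind the Lrp co-receptors instead, together with Kremen proteins, while Dkk3 is a divergent member of its family. In the tooth germ, Wnt signalling passes between the epithelium and the mesenchyme and bears on how many teeth form.

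Promoter windows are shown first for Sfrp2 and Dkk2, the antagonist genes with the largest differences, and for Frzb, a family member at nearly equal levels. RefSeq's table for GRCm38.p6 held a window of 300 bases around the start site for 6 of the 10 genes, and it had none for Sfrp1, Sfrp4, Dkk3 and Dkk4. The 250 bases before the start site are printed 5′ to 3′ on the strand of the gene, for Sfrp2 from chr3:83766071-83766320 (plus strand), for Dkk2 from chr3:132085042-132085291 (plus strand) and for Frzb from chr2:80447397-80447646 (minus strand). Capitals mark matches to the core of the Tcf/Lef motif, CTTTGA or CTTTGT, on either strand.
Sfrp2: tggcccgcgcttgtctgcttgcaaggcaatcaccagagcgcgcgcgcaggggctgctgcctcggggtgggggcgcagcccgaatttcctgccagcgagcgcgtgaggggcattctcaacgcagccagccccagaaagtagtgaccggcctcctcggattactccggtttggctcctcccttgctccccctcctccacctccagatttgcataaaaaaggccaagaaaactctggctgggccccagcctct
Dkk2: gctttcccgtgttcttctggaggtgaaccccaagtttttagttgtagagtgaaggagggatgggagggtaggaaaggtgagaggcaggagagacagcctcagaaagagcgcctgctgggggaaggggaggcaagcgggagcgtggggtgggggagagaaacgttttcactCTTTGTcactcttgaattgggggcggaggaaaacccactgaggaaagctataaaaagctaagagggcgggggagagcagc
Frzb: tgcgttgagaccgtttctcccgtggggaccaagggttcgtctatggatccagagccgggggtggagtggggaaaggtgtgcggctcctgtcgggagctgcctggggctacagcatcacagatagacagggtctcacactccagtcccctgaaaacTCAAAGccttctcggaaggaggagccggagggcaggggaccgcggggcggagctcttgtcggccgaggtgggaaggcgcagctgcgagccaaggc
The Sfrp2 window held no match, the Dkk2 window held 1 CTTTGT and the Frzb window held 1 CTTTGA on the opposite strand. Dkk1 had the most matches, with 2 CTTTGA and 1 CTTTGT, and the windows of Wif1 and Sfrp5 had none. Matches thus occurred in 3 of 6 windows, where 31.2% of all 32851 windows in the table hold 1 or the other core. The core of the Odd-skipped motif, ACAGTAG, was in none of the 6 windows on either strand and in 2.89% of all windows. No matches overlapped. The number of CpG dinucleotides was 25 in the window of Wif1, 22 in Sfrp2, 20 in Frzb, 15 in Sfrp5, 11 in Dkk2 and 9 in Dkk1, with a median of 7 over all windows. As many or fewer were found in 83.1% of all windows for Wif1, 78.5% for Sfrp2 and 56.5% for Dkk1. A match describes letters only.

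From the deposited coverage, the control was estimated to hold 5.38 M mapped reads and the mutant 34.3 M. Levels are given in RPKM, a unit that divides the reads of a transcript by its length and by the depth of the library. Osr2 was at 38.7 RPKM in the control library and 9.16 RPKM in the mutant library, in the direction of the labels, which do not say which part of the gene was removed. The pools differed in more than genotype. The Y-linked gene Ddx3y stood at 3.28 RPKM in the control but was listed at 0 in the mutant, Xist stood at 5.21 and 30.0 RPKM, and each library had its own sequencing lane, so sex, lane and genotype cannot be told apart. Among the dental mesenchyme markers, Prrx1 was the most abundant at 151 and 122 RPKM.

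As a group, the antagonist transcripts were at 299 RPKM in the control library (95% counting interval 289 to 309) and at 126 RPKM in the mutant library (124 to 129), or 2.37-fold lower (2.28 to 2.46). Intervals here and below cover counting error of approximate read numbers only; amplified reads are not independent molecules, and there are no replicates. Sfrp2 made up 152 RPKM of the difference of 173 RPKM, or 88.2%. Without Sfrp2 the other 9 genes summed to 91.3 RPKM in the control library and 71.0 RPKM in the mutant library, or 1.29-fold lower (1.22 to 1.36). Without Sfrp2 and Dkk2 the remaining 8 genes were at 76.8 and 64.7 RPKM, 1.19-fold lower (1.12 to 1.26). In pooled tissue, fewer cells that express a gene and less RNA per cell cannot be told apart.

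**Figure D1:**
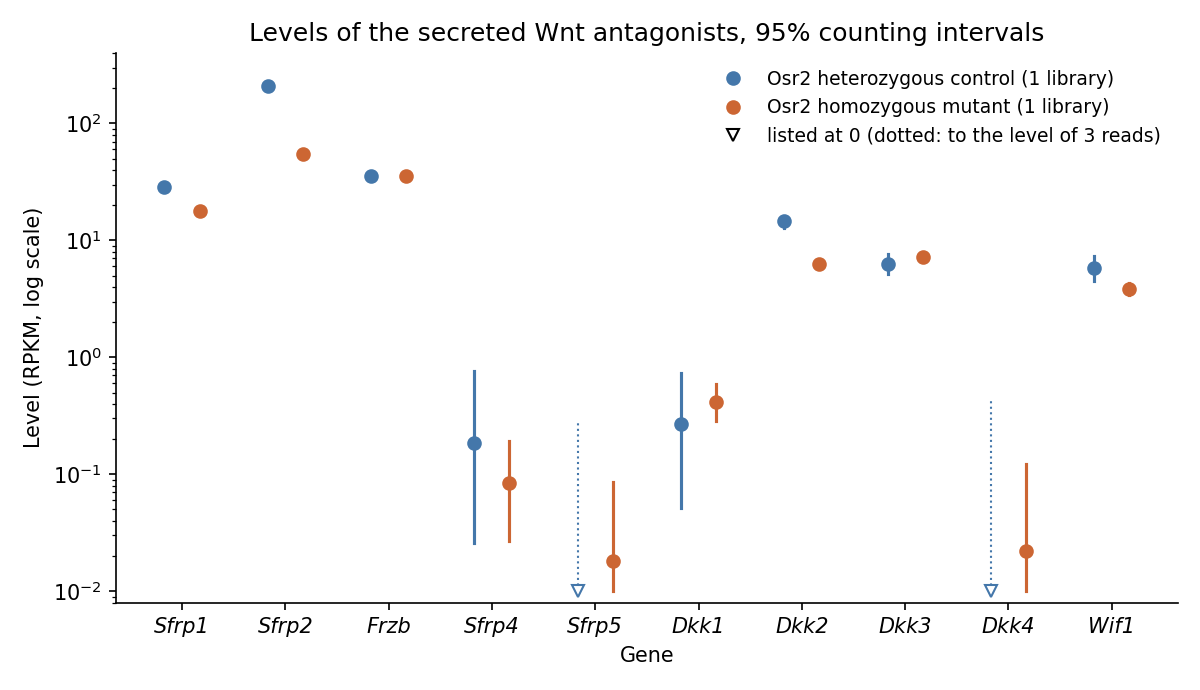
RPKM on a log axis of each antagonist gene in the control (blue) and mutant (orange) library, 1 library each; bars are 95% counting intervals, drawn down to 0.01 RPKM where they reach lower. Sfrp2 stands at 208 and 55.2 RPKM, Frzb at 35.5 and 35.2 RPKM, and Sfrp4, Sfrp5, Dkk1 and Dkk4 stay under 1 RPKM in both libraries.

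Levels of 6 genes (Sfrp1, Sfrp2, Frzb, Dkk2, Dkk3 and Wif1) reached 1 RPKM, and each did so in both libraries. The other 4, Sfrp4, Sfrp5, Dkk1 and Dkk4, reached it in neither. On the log2(RPKM + 1) scale, which understates differences of low genes, 2 of the 6 were at least 2-fold lower in the mutant and 0 at least 2-fold higher. The same was true of 0.77% and 0.801% of the 9741 genes with at least 1 RPKM in a library. The counting interval of the fold lay below 1 for 4 of the 6 and above 1 for 0, against 15.9% and 7.8% of all genes tested. The median log2 ratio of the 6 was -0.57, beside -0.05 over all genes tested. Since the genes were chosen on this contrast, these counts are no evidence about the family.

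Among the Sfrp family, whose products bind Wnt ligands, Sfrp2 was the most abundant antagonist in both libraries and the most different. Its level was 208 RPKM in the control library (199 to 216) and 55.2 RPKM in the mutant library (53.5 to 57.0), or 3.76-fold lower (3.56 to 3.96), with a log2 ratio of -1.89. The estimate rests on about 2234 control and 3792 mutant reads over a transcript of 2001 bases, the deepest count of any antagonist. The raw coverage of Sfrp2 was in fact greater in the mutant, at 83.9 reads per base against 49.4, but that library was 6.38 times as deep. Among the 9741 genes, Sfrp2 ranked 64 by level in the control library and 250 in the mutant library. The gene lies at chr3:83570243-83578236 in mm9, the build of the files, and no other listed transcript overlaps it.

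Sfrp1 was at 28.7 RPKM in the control library (26.6 to 31.0) and 17.9 RPKM in the mutant library (17.2 to 18.5). This was 1.61-fold lower (1.48 to 1.75), a smaller difference than that of Sfrp2. Frzb, also called Sfrp3, was at 35.5 RPKM (32.6 to 38.6) and 35.2 RPKM (34.1 to 36.4), and the mutant interval lay within that of the control. Sfrp4 was barely detected, at 0.185 RPKM on about 2 control reads and 0.0850 RPKM on about 5 mutant reads, a ratio of 0.46 with an interval of 0.0642 to 4.12 that includes 1. Sfrp5 was listed at 0 in the control, where 3 reads would be 0.294 RPKM, and at 0.0180 RPKM on about 1 read in the mutant. The family therefore held 1 strongly different gene, 1 moderately different gene and 1 at an equal level among its 3 expressed members.

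Within a library, the ratio of 2 genes does not depend on how the libraries are scaled to each other. Sfrp2 was 5.85 times the level of Frzb in the control (5.33 to 6.41) and 1.57 times in the mutant (1.498 to 1.642). Against Sfrp1, Sfrp2 was at 7.23 times the level in the control and 3.09 times in the mutant. The ratio of Sfrp1 to Frzb was 0.81 in the control library (0.72 to 0.90) and 0.51 in that of the mutant (0.48 to 0.53). The 3 expressed family members thus stood in the same order in both libraries. In the mutant, Sfrp2 was nearer to Frzb and to Sfrp1, whereas Sfrp1 and Frzb were further apart.

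Among the Dickkopf genes, Dkk2, whose product binds the Lrp co-receptors, was lower in the mutant, and Dkk3 was not. Dkk2 was at 14.5 RPKM in the control library (12.9 to 16.3) and 6.27 RPKM in the mutant library (5.84 to 6.72), or 2.31-fold lower (2.01 to 2.65), with a log2 ratio of -1.09. It lies at chr3:131748256-131843268 in mm9, on the same chromosome as Sfrp2. Dkk3 was at 6.30 RPKM (5.21 to 7.59) and 7.20 RPKM (6.72 to 7.71), a ratio of 1.14 (0.936 to 1.399) whose interval includes 1. Dkk2 was thus 2.30 times the level of Dkk3 in the control (1.86 to 2.86) and 0.87 times in the mutant (0.79 to 0.96), so that the order of the pair was exchanged.

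The other Dickkopf genes were low, and in the control library they were at the edge of detection. Dkk1 was at 0.270 RPKM on about 3 control reads and 0.415 RPKM on about 32 mutant reads, a ratio of 1.54 with an interval of 0.52 to 8.54. Dkk4, known as an epithelial gene of the tooth, had a value of 0 in the control, where 3 reads would be 0.425 RPKM, and at 0.0221 RPKM on about 1 read in the mutant. The ratio of Dkk1 was imprecise because of its few control reads, and a difference in Dkk4 was not detectable at this depth. Shh, made by the enamel knot of the epithelium, was also listed at 0 in the control and was at 0.175 RPKM in the mutant.

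Wif1 was at 5.83 RPKM in the control library (4.53 to 7.34) and 3.86 RPKM in the mutant library (3.44 to 4.33), or 1.51-fold lower (1.14 to 1.96). It had about 70 control reads, the fewest of the 6 expressed genes. Its level was 0.92 times that of Dkk3 in the control library (0.69 to 1.25, an interval that includes 1) and 0.54 times that of Dkk3 in the mutant library (0.47 to 0.61).

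**Figure D2:**
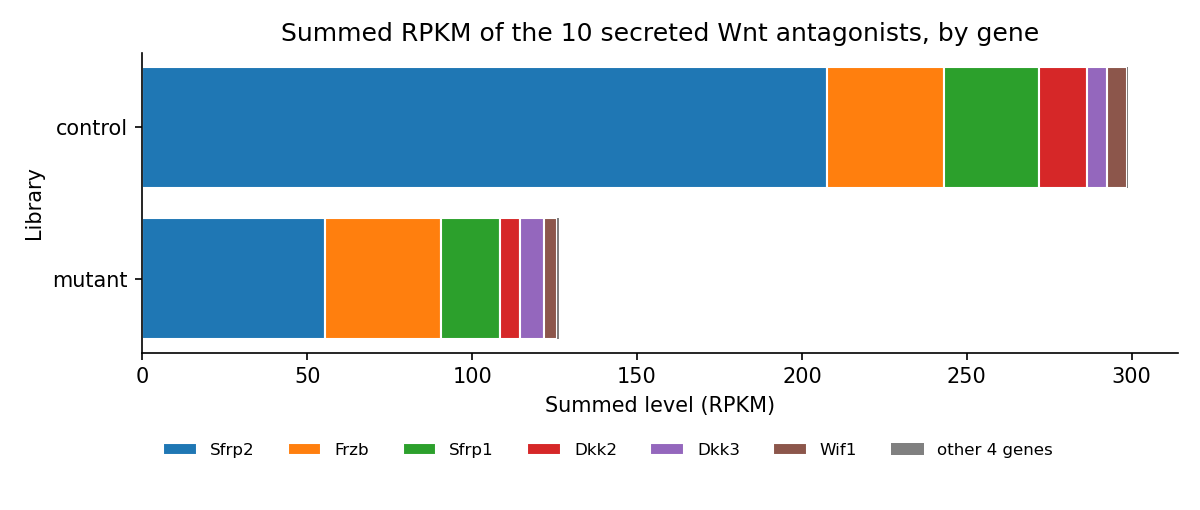
Stacked bars of the RPKM of the antagonist genes in each library, from 0, with the genes in the order of their control level; the 4 genes under 1 RPKM are drawn together in grey. The control bar ends at 299 RPKM and the mutant bar at 126 RPKM, and the Sfrp2 segment accounts for most of the difference.

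The composition of the antagonist pool differed with its size. Sfrp2 held 69.4% of the summed RPKM in the control (68.1 to 70.8) and 43.8% in the mutant (42.8 to 44.7). Frzb held 11.9% (11.0 to 12.9) and 27.9% (27.1 to 28.7), and Sfrp1 held 9.61% and 14.1%. The larger share of Sfrp1 came with a lower level. Dkk2 held 4.86% (4.33 to 5.44) and 4.97% (4.64 to 5.32), since it was lower by about the same factor as the whole sum. Dkk3 went from 2.11% to 5.70% and Wif1 from 1.95% to 3.06%. By family, the Sfrp genes made up 91.0% of the control sum and 85.9% of the mutant sum, and the Dickkopf genes 7.06% and 11.0%.

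The order of levels in the control was Sfrp2, Frzb, Sfrp1, Dkk2, Dkk3, Wif1, Dkk1 and Sfrp4, with Sfrp5 and Dkk4 listed at 0. Neighbours in that order had separate counting intervals down to Dkk2 and Dkk3, whereas those of Dkk3 and Wif1, and of Dkk1 and Sfrp4, overlapped. In the mutant the order was Sfrp2, Frzb, Sfrp1, Dkk3, Dkk2, Wif1, Dkk1, Sfrp4, Dkk4 and Sfrp5. There the intervals of Dkk3 and Dkk2 touched, and those of the last 3 genes overlapped.

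**Figure D3:**
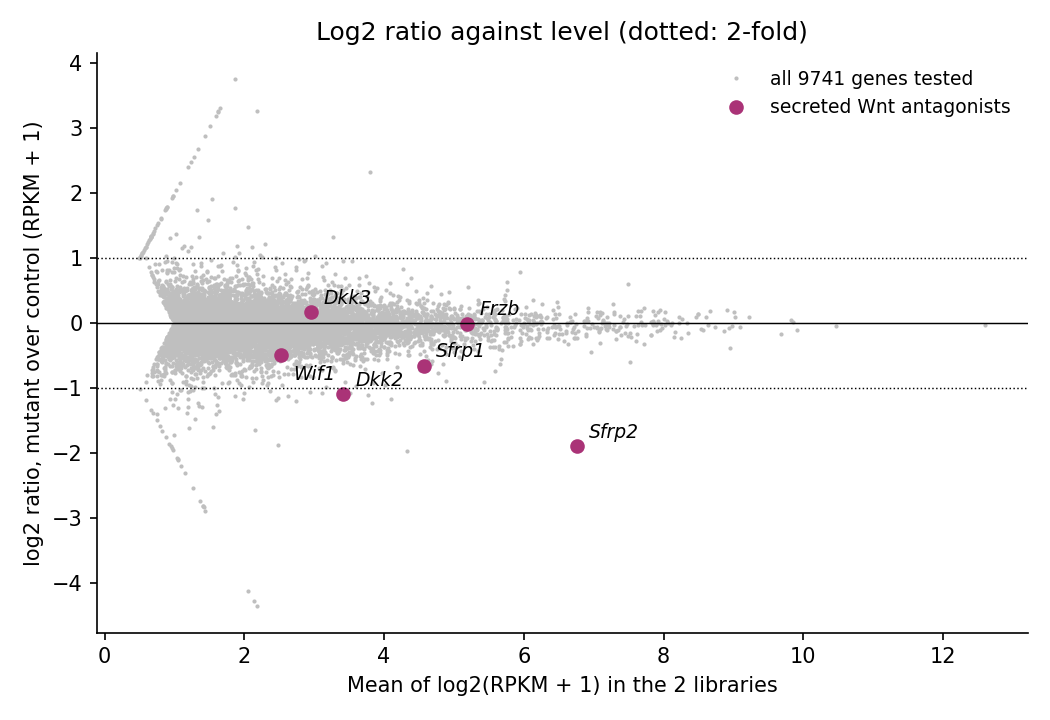
Log2 ratio of RPKM + 1, mutant over control, against the mean log2(RPKM + 1) of the 2 libraries for 9741 genes (grey) and the 6 antagonist genes tested (purple); dotted lines mark 2-fold. Sfrp2 at -1.89 lies below the other genes of its level, Dkk2 at -1.09 lies at the lower edge, and Frzb at -0.01 lies within the main body.

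Over all genes tested, Sfrp2 ranked 19 from the lowest log2 ratio and Dkk2 ranked 60. Osr2, at 38.7 RPKM in the control library, had a lower log2 ratio than Sfrp2, at -1.97. Among genes with at least 0.5 times the control level of Sfrp2, no other was nearly as much lower in the mutant. That set has no upper limit, so it also holds far more abundant genes. Genes higher in the mutant were not ranked. Among the 146 genes with at least 0.5 times its control level, Sfrp2 had the lowest log2 ratio. The 3 nearest to it in log2 ratio were the matrix gene Postn at -0.61 and the globin genes Hba-a1 at -0.44 and Hbb-y at -0.38, all far from it. For Dkk2, which ranked 13 from the lowest of 2481 genes with at least 0.5 times its control level, the nearest were Chodl at -1.11, Gm1673 at -1.08 and the adhesion molecule gene Ncam2 at -1.07. With 2 libraries this likeness is that of a single ratio.

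Genes next to Sfrp2 and Dkk2 on the genome had log2 ratios nearer to 0. Of the genes tested within 500 kb, the 4 around Sfrp2 had log2 ratios from -0.31 to -0.07, and the 2 around Dkk2, Aimp1 and Papss1, had -0.34 and 0.27. The 4 around Sfrp1 had log2 ratios from -0.38 to 0.22. No other listed transcript overlapped any of the 10 genes. Each of the 10 genes had 2 to 12 neighbours tested. Of all genes tested, 0.77% were at least 2-fold lower and 0.801% at least 2-fold higher. On the log2(RPKM + 1) scale, 1 neighbour of the 10 genes was at least 2-fold apart, the microRNA gene Mir684-1 near Frzb. It was listed at 0 in the control and at 12.4 RPKM in the mutant. By plain RPKM, Mical2 near Dkk3 was also past 2-fold, at 0.867 and 1.84 RPKM, a ratio of 2.12 (1.47 to 3.15). Both were singled out after their values were seen.

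**Figure D4:**
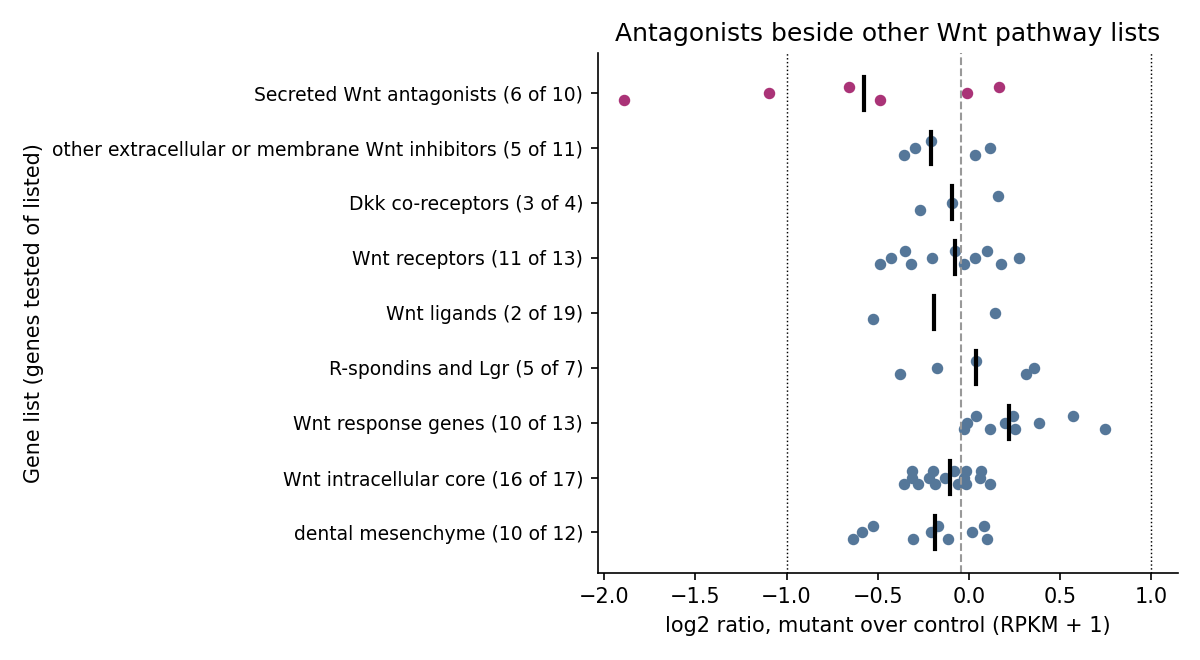
Log2 ratio of RPKM + 1, mutant over control, of each gene tested in the antagonist list (purple), 7 other Wnt pathway lists and the dental mesenchyme markers (blue); black bars are list medians, the dashed line is the median of all genes tested at -0.05, and dotted lines mark 2-fold. On this scale no gene of the other lists lies beyond 2-fold, as for most genes: 0.77% of all genes tested were 2-fold lower and 0.801% higher. The antagonist list, chosen on this contrast, holds the lowest values.

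On the log2(RPKM + 1) scale, 0 of the genes tested in the other Wnt pathway lists were 2-fold apart. Over all genes tested, 0.77% were at least 2-fold lower and 0.801% at least 2-fold higher. With 2 to 16 genes tested per list, a count of 0 is near those shares and sets no list apart. By plain RPKM, the low ligand gene Wnt2 was past 2-fold, at 2.33-fold lower (1.12 to 4.45). Wnt2 passed the filter of 1 RPKM through the control library alone, on about 13 reads. Of 11 other extracellular or membrane inhibitors listed, 5 were tested, 2 had an interval below 1 and 0 above 1, with a median log2 ratio of -0.21. Over all genes tested, the interval lay below 1 for 15.9% and above 1 for 7.8%. Sostdc1, a secreted inhibitor of BMP and Wnt signalling, was at 55.6 and 43.3 RPKM, 1.28-fold lower (1.17 to 1.41). It was thus more abundant than every antagonist gene but Sfrp2 in the control. Igfbp4, an insulin-like growth factor binding protein gene, was at 57.3 and 46.6 RPKM, and Apcdd1, a membrane inhibitor, at 5.19 and 4.36 RPKM.

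The co-receptors through which Dickkopf proteins act were present in both libraries. Lrp6 was at 8.95 and 7.27 RPKM, 1.23-fold lower (1.11 to 1.36), and Lrp5 at 2.85 and 3.30 RPKM, a ratio of 1.16 (0.92 to 1.49). Kremen1 was at 1.20 and 1.06 RPKM. Of 13 Wnt receptors, 11 were tested, 4 had an interval below 1 and 1 above 1, with a median log2 ratio of -0.08. The shares of all genes tested were 15.9% below 1 and 7.8% above 1. Fzd2, the most abundant receptor in the control, was at 33.0 and 24.3 RPKM, Ror2 at 4.86 and 3.59 RPKM and Fzd10 at 2.97 and 1.83 RPKM.

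Only 2 of 19 Wnt ligand genes were tested. Wnt5a, the most abundant, was at 10.2 and 11.3 RPKM, and Wnt2 was at 1.15 and 0.495 RPKM, with an interval of the ratio of 0.22 to 0.89. Of 7 R-spondin and Lgr genes, which enhance Wnt signalling, 5 were tested and 2 had an interval above 1, Rspo3 at 14.6 and 18.4 RPKM and Lgr4 at 3.97 and 5.36 RPKM. Rspo1 was at 3.45 and 2.42 RPKM. An interval above 1 was found for 7.8% of all genes tested and 1 below 1 for 15.9%. Summed antagonist RPKM was 20.6 times the summed ligand RPKM in the control and 8.98 times in the mutant, and 3.16 and 1.49 times the summed receptor RPKM. These are ratios of transcript levels within a library.

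Of 13 genes that respond to Wnt signalling, 10 were tested, 4 had an interval above 1 and 0 below 1, with a median log2 ratio of 0.22. For this list and the core genes below, the shares over all genes tested were 7.8% above 1 and 15.9% below 1. The 3 tested genes with the largest differences were Lef1 at 6.56 and 11.7 RPKM, Tcf7 at 2.02 and 3.48 RPKM and Ccnd1 at 7.93 and 10.6 RPKM. Axin2 hardly differed, with 9.06 RPKM in the control, 8.86 RPKM in the mutant and a fold interval from 0.85 to 1.14. Nkd2 and Lgr5 had log2 ratios of -0.01 and 0.04. Of the genes tested in this list, 8 had a log2 ratio above 0 and 2 below 0, against 4134 above and 5607 below among all 9741 genes tested. In the intracellular core of the pathway, 16 of 17 genes were tested, 2 showed an interval below 1 and another 1 above it, with a median log2 ratio of -0.11. The members with the largest differences there were Bcl9l at 5.87 and 4.37 RPKM, Porcn, the acyltransferase gene of Wnt ligands, at 2.51 and 1.83 RPKM, and the transcription factor gene Tcf7l1 at 14.02 and 11.10 RPKM. All 3 were lower in the mutant library, but the interval of Porcn included 1.

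Markers of the mesenchyme and of other cell types also differed between the libraries. Over all genes tested, the interval lay below 1 for 15.9% and above 1 for 7.8%, and 0.801% were at least 2-fold higher. Of 10 dental mesenchyme markers tested, 6 had an interval below 1, with 0 above it, and the list summed to 420 RPKM in the control library and 338 RPKM in the mutant library. Relative to that sum, an alternative added after the data were seen, the summed antagonists were at 0.53 times the control value against 0.42 as deposited. On that scale Sfrp2 had a log2 ratio of -1.58, Dkk2 was no longer 2-fold lower at -0.82, and Frzb at 0.30 and Dkk3 at 0.45 were higher. Of 9 epithelial markers tested, 5 had an interval above 1 and 0 below 1. Only 7 of the 9 reached 1 RPKM in both libraries, as Krt18 and Cdh1 passed the filter through the mutant library alone. The epithelial list summed to 41.7 and 59.1 RPKM, while Fgf4 was listed at 0 in both libraries. Of 5 osteoblast markers tested, 4 had an interval above 1 and 3 were at least 2-fold higher. Ibsp was at 28.4-fold (11.7 to 84.7), Sp7 at 6.33-fold (3.23 to 16.9) and Alpl at 2.93-fold (2.03 to 4.39). Only 3 of the 5 reached 1 RPKM in both libraries, as Ibsp and Sp7 passed the filter through the mutant library alone. In the control they were at 0.459 and 0.607 RPKM, on about 5 and 7 reads. The osteoblast sum of 99.9 and 135 RPKM was mostly Col1a1, at 83.2 and 86.7 RPKM, and Bglap and Spp1 were listed at 0 in the control. Both cartilage markers tested had an interval above 1, Col2a1 at 1.95-fold (1.60 to 2.39) and Sox9 at 1.34-fold (1.08 to 1.69), while Acan and Matn1 were listed at 0 in the control. The part of these differences in the antagonist values was not tested.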

How the data were processed

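RNA of 2 libraries, 1 per genotype, was measured. The submitters' processing notes name Bowtie 0.12.7, TopHat 1.4.1 and the mm9 build. The authors deposited RPKM values and mean coverage (an unscaled signal) for 28107 RefSeq transcript rows. RPKM was used as deposited. Rows without an OK status in both libraries (348) were left out and the rest summed per symbol; each antagonist gene has 1 row. Ratios are log2 of RPKM + 1, for 9741 genes with at least 1 RPKM in a library. Approximate reads are coverage times length divided by 44.3 bases, which is the median product between 20 and 66 bases, averaged over the libraries. This step is an estimate, so no count model was fitted. From the reads come 95% exact Poisson intervals of levels, Clopper-Pearson intervals of folds and delta-method intervals of sums, shares and within-library ratios. The interval code was tested on simulated data. Named genes are the 10 antagonists, Osr2, the nearest genes by log2 ratio, and up to 3 members per pathway list with the largest absolute log2 ratio. Other genes named, among them Wnt pathway genes, neighbours and markers, were chosen after their values were seen. The antagonist genes and lists were chosen with earlier results of these data known. Python 3.11.15, pandas 2.3.3 and scipy 1.17.1 were used.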

Additional observations from a re-analysis of the deposited data

How the results depend on the processing

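The counts of antagonist genes at least 2-fold lower (2) and higher (0) held with a pseudocount of 0.1 RPKM, on the TPM scale and under median scaling. No filter, a filter of 5 RPKM, the highest row per gene and all rows gave the same counts but could not have changed them. Each antagonist gene has 1 row, and the filter of 5 RPKM keeps the same 6 genes. Genes under 1 RPKM in both libraries cannot reach 2-fold on the log2(RPKM + 1) scale. Without a filter the median log2 ratio was -0.0695, because the 4 genes under 1 RPKM in both libraries enter it. On the TPM scale the summed fold was 0.47 against 0.42, and the median of all genes was 0.08 against -0.05. With 100 bases per read, 3 intervals in place of 4 lay below 1. Scaling to the summed dental mesenchyme markers, added after the data were seen, left 1 gene 2-fold lower, a median of -0.30, a summed fold of 0.53 and 2 intervals above 1; by its construction it raises every mutant value. Frzb, at -0.01 as reported, kept its sign under 3 of 6 alternatives, but the highest row and all rows could not change it. It was above 0 on the TPM scale (0.13), under median scaling (0.02) and under marker scaling (0.30). Of 9741 genes tested, counts of 2-fold lower and higher genes were 75 and 78 as reported, and 239 and 188 with a pseudocount of 0.1. On the TPM scale they were 592 and 965 of 13958 genes. There the filter and pseudocount were 1 TPM, which let in more low genes, so these counts are not like for like. No paired analysis was possible because each genotype has 1 library, and for the same reason none could be left out.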
